A study of Rattus norvegicus with 12 samples.

Results

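The Syne1 locus was described over 41.4 kb of chromosome 1 of the rat genome build Rnor_6.0, cut into consecutive windows of 100 bp and centred near chr1:41961201-41962500. It comprised 370 windows with at least 1 read and 44 without a read in any of the pools, of 27820300 windows in the genome. The locus was selected on the epithelial lineage contrast: the study assigned to Syne1 an epithelial differential DNA methylation region (DMR) between the control and vinclozolin lineages, and its surroundings on each side were added. Because that contrast chose the locus, the epithelial lineage differences below are a description and carry no test. The stromal pools were not used in that choice, and the epithelial against stromal contrasts were tested on windows outside the DMR. The DNA came from ventral prostate epithelial cells and stromal cells of F3 generation males, 19 to 21 days old, of the outbred strain Hsd:Sprague Dawley. Their F0 ancestors had been injected on gestation days 8 to 14 with vinclozolin, an antiandrogenic fungicide, at 100 mg/kg/day (vinclozolin lineage), or with the vehicle dimethyl sulfoxide (control lineage). Only the pregnant F0 females were injected. By the study's account this also exposed the F1 fetuses and their germ cells, from which F2 arose, but no F3 animal. There were 4 groups of 3 pools, 12 pools in all, and each pool joined the tissue of several rats, so that a value is an average over animals. Epithelial and stromal cells were separated from the same pooled tissue, so the cell types of a lineage do not come from different rats.

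Syne1 encodes nesprin-1, a giant protein of the outer nuclear membrane. Its C-terminal KASH domain binds SUN proteins across the space between the nuclear membranes, its N-terminal calponin-homology domains in the longest isoforms bind actin, and the many spectrin repeats between them span the distance. The resulting bridge, the LINC complex, couples the nucleus to the cytoskeleton and takes part in nuclear positioning and in the transmission of force to chromatin. In the gene order of RefSeq's GRCr8 assembly, Syne1 lies between the protein-coding genes Esr1, the estrogen receptor alpha gene, and Myct1. Where the windows lie relative to the exons, introns and promoters of Syne1 in Rnor_6.0 was not analysed here, nor were the other genes of the bridge or markers of the 2 cell types, since no annotation of that build was used.

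MeDIP-Seq pulls down DNA fragments with an antibody to methylated cytosine, so that more reads over a window mean more methylated fragments there. It gives no methylation percentage, it depends on how many CpG sites a fragment holds, and a read that spans neighbouring windows counts in each of them. The study lists few CpG sites in its Syne1 DMR, and their positions within it were not analysed. In DNA from many cells, a different mix of cells and a different methylation per cell cannot be told apart. The window counts summed to between 57135700 and 112304623 per pool. The highest total of each vinclozolin lineage group was above that of its control group, but the totals of the lineages overlapped in both cell types. Counts are therefore given beside CPM, the counts scaled to the total of the pool and its TMM factor. The deposited counts ended at exactly 300 in each of the 12 pools, so that higher counts, and with them the totals, may be truncated. The highest count at the locus was 91, below that limit. On chromosome 1, the squared difference within a group ranged from 0.989 to 2.04 times that of counting noise. Epithelial control pool 1 stood apart, with 2.04 and 1.77 against the other epithelial control pools, which had 1.04 between themselves. Stromal vinclozolin pool 3 did so to a lesser degree, with 1.62 and 1.29 against pools that had 1.02 between themselves. The main epithelial control values below are therefore also given without the former, and the main stromal lineage values without the latter. Nothing in the labels says that the pools were more than separate samples of their group, and p-values measure the spread between these pools.

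Most of the locus held few methylated fragments, and the DMR was its main peak. Of the 44 windows without a read, 29 lay side by side at chr1:41942401-41945300. Whether reads can be mapped to that stretch was not checked, so its lack of reads is not read as a lack of methylation. The DMR held 24.1% of all counts of the locus in 3.14% of its windows. The 5 windows with the highest mean level were consecutive, from chr1:41961501-41961600 to chr1:41961901-41962000, all within the DMR. The other stretches with raised counts were the first kilobase of the locus, with 1.28 to 1.79 CPM as group means, and most of the kilobases from chr1:41946201-41947200 to chr1:41951201-41952200. After the DMR, no kilobase from chr1:41963201-41964200 on reached a group mean above 0.585 CPM. The shape of the locus was alike in all pools. Over all its windows, Pearson's r between the CPM profiles of pools was 0.890 to 0.961 for the 12 pairs of the same group, 0.883 to 0.941 for the 18 pairs of the same cell type and other lineage, and 0.892 to 0.963 for the 18 pairs of the same lineage and other cell type. These correlations run across windows of a shared genome and describe the common profile only.

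**Figure D1:**
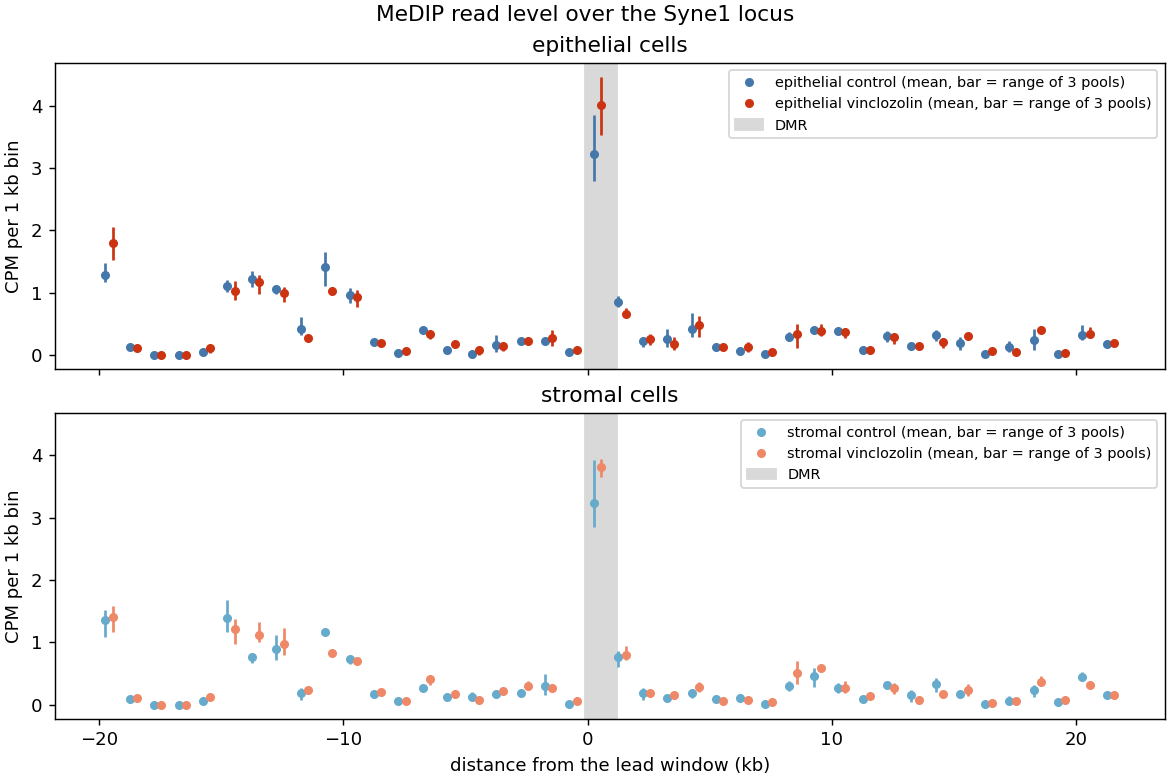
Mean CPM (y axis) in bins of 1 kb along the Syne1 locus, by distance from the lead window in kb (x axis), with epithelial cells above and stromal cells below; points are means of 3 pools and bars run from the lowest to the highest pool. The bin that holds the summit of the DMR reaches 3.22 to 4.02 CPM as group means, and no other bin has a mean above 1.79 CPM.

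The total over the locus hardly differed between the groups. The summed level was 17.2 ± 1.46 CPM (SD, n = 3 pools) in epithelial control cells and 18.1 ± 0.457 CPM in epithelial vinclozolin cells, with pool values from 16.0 to 18.8 CPM and from 17.8 to 18.6 CPM. It was 15.9 ± 0.443 CPM in stromal control cells and 17.2 ± 1.00 CPM in stromal vinclozolin cells, with pool values from 15.4 to 16.3 CPM and from 16.1 to 18.1 CPM. The groups overlapped in both cell types. The log2 ratio of vinclozolin to control was 0.07 (SE 0.07) in epithelial cells, or 0.14 with no overlap between the lineages without epithelial control pool 1, and 0.12 (SE 0.05) in stromal cells. The stromal log2 ratio was 0.11 without stromal vinclozolin pool 3. The stromal difference gave p = 0.2 in a two-sided exact permutation test of 3 pools against 3, in which 0.1 is the smallest p possible. Differences between the groups were thus small over the whole locus and larger in single windows.

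The DMR, rebuilt from the counts, spanned chr1:41961201-41962500 and 13 windows. The study's own DMR has the same end but starts at chr1:41961301, so the rebuilt one also holds the window before that start. Its lead window, the window of the locus that differed most between the epithelial lineages, was chr1:41961301-41961400. In this window the epithelial control pools had 1, 2 and 0 reads and the epithelial vinclozolin pools 12, 18 and 12 reads. Every vinclozolin pool lay above every control pool, and the control pools were close to empty. The levels were 0.0131 ± 0.0117 CPM and 0.156 ± 0.0105 CPM (SD, n = 3 each), a ratio of the means of 11.9 (log2 3.57). On 3 counts in the control group, the ratio of summed counts was 11.6 with a 95% interval of 3.69 to 58.3, which covers counting error only. The log2 ratio was 3.80 without epithelial control pool 1. It was 4.21 without epithelial control pool 2, which held 2 of the 3 reads, and 2.99 without pool 3.

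The windows beside the lead window followed it in epithelial cells. In the window before it, chr1:41961201-41961300, the control pools had 1, 1 and 0 reads and the vinclozolin pools 4, 7 and 4. In the window after it, chr1:41961401-41961500, the control pools had 9, 14 and 6 reads and the vinclozolin pools 17, 33 and 27. Vinclozolin pools were above control pools in each of these windows. The difference narrowed toward the summit of the peak and then turned. At chr1:41961501-41961600 the counts were 36, 43 and 28 against 48, 76 and 58, and at the summit, chr1:41961701-41961800, they were 52, 54 and 60 against 70, 91 and 77. The summit levels were 0.770 ± 0.143 CPM and 0.899 ± 0.109 CPM (SD, n = 3 each) and overlapped, with a log2 ratio of 0.22. Without epithelial control pool 1 the log2 ratio at the summit was 0.33, and the remaining control pools lay below all vinclozolin pools. At the far end of the DMR, chr1:41962401-41962500, the control pools were higher, at 0.265 ± 0.0481 CPM against 0.137 ± 0.0434 CPM, with no overlap and a log2 ratio of -0.91 in edgeR's fit. A smaller rise of counts lies there, next to the main peak. Over the 13 windows the gain and the loss partly cancelled, and the summed level was 3.86 ± 0.566 CPM in control and 4.44 ± 0.548 CPM in vinclozolin pools, a log2 ratio of 0.20 with overlapping pools. Without epithelial control pool 1 it was 0.32 and the pools did not overlap.

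The edges of the DMR mark where the windows joined by the rule ended. The window just before it, chr1:41961101-41961200, had 0, 1 and 0 reads in epithelial control and 0, 2 and 1 in epithelial vinclozolin pools, so the peak starts here from almost no reads. The window just after it, chr1:41962501-41962600, had 10, 12 and 10 reads against 9, 18 and 7, and the lineages overlapped.

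**Figure D2:**
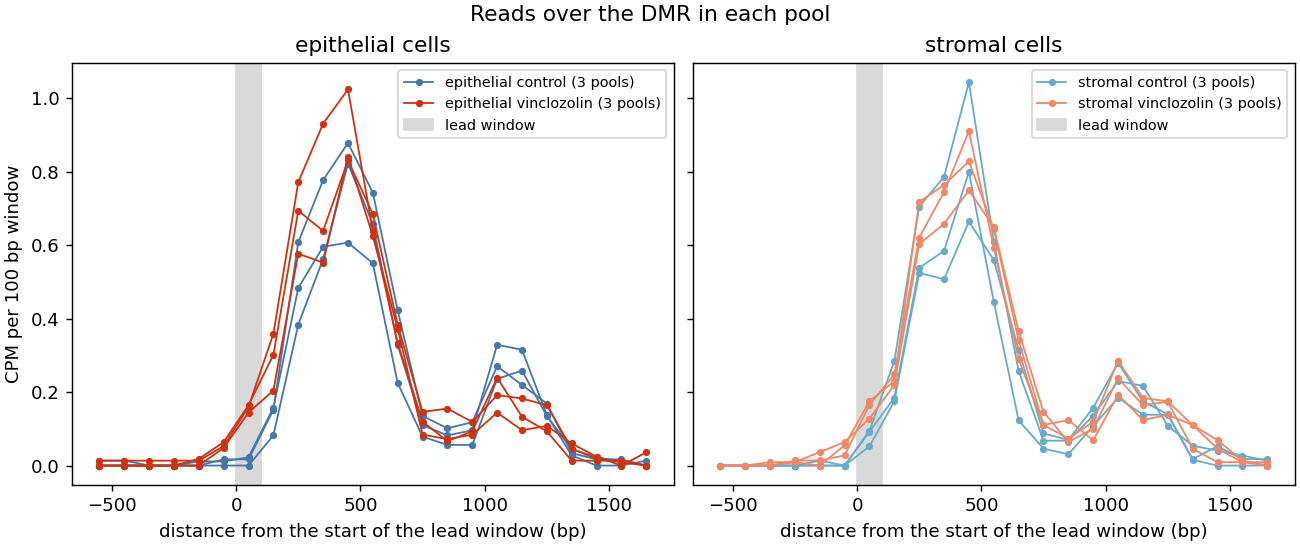
CPM per 100 bp window (y axis) over the DMR and its surroundings, by distance in bp from the start of the lead window (x axis), with 1 line per pool; epithelial cells on the left, stromal cells on the right, and the lead window shaded. In the lead window the epithelial vinclozolin pools lie at 0.144 to 0.164 CPM and the epithelial control pools at 0 to 0.0225 CPM, while the pools overlap at the summit, in epithelial cells through control pool 1.

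The stromal cells, which did not choose the locus, also had more reads in the lead window in the vinclozolin lineage, by a smaller ratio. They came from the same rats as the epithelial cells, so this is no independent repeat in other animals. The stromal control pools had 3, 6 and 7 reads and the stromal vinclozolin pools 14, 19 and 12. All vinclozolin pools were above all control pools, and the control pools were above those of the epithelial cells. The levels were 0.0799 ± 0.0238 CPM and 0.156 ± 0.0248 CPM (SD, n = 3 each), a ratio of 1.95 (log2 0.97, SE 0.28) that gave p = 0.1 in the two-sided exact permutation test, the smallest p possible. The log2 ratio was 0.92 without stromal vinclozolin pool 3. The ratio of summed counts was 1.90 with a 95% interval of 1.05 to 3.60 for counting error. In edgeR's exact test over the genome the lead window had p = 0.0248 and a Benjamini-Hochberg adjusted p of 0.606, so it was not called at an adjusted p under 0.1.

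The stromal control pools had no reads in chr1:41961201-41961300, and the stromal vinclozolin pools had 7, 6 and 2. After scaling, the summed counts of the vinclozolin group were 3.37 times an assumed floor of 3 counts summed over the control group. The lower 95% limit of the ratio of summed counts, for counting error alone, was 2.42. This window reached the limit of 10 summed counts for testing only through the vinclozolin group, where it is high, so that its levels are a description, and it was not called. In the window after the lead window, the stromal counts were 10, 12 and 21 against 24, 25 and 18, with overlapping levels and a log2 ratio of 0.12 (exact permutation p = 0.7, two-sided). At the summit they were 38, 52 and 77 against 82, 90 and 66, again with overlapping levels, and the log2 ratio was -0.01 (SE 0.21, exact permutation p = 1, two-sided). The sum over the DMR was 3.78 ± 0.640 CPM in stromal control and 4.30 ± 0.201 CPM in stromal vinclozolin pools (log2 ratio 0.19, SE 0.15, two-sided exact permutation p = 0.3, n = 3 each), and the log2 ratio was 0.20 without stromal vinclozolin pool 3.

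**Figure D3:**
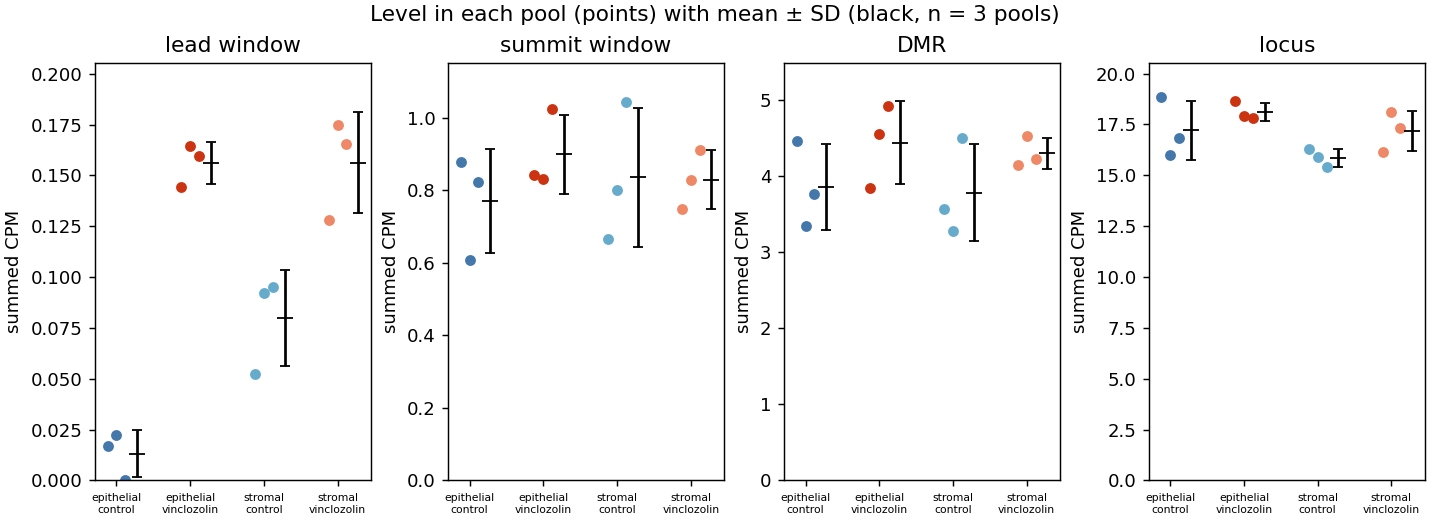
Summed CPM (y axis, from 0) in the lead window, the summit window, the 13 windows of the DMR and all windows of the locus for the 4 groups (x axis); points are pools and the black marks beside them the mean ± SD of 3 pools. The lineages separate in the lead window in both cell types and overlap in the summit window, the DMR and the locus, in epithelial cells through control pool 1 alone.

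The 4 groups thus had an order in the lead window. Epithelial control was lowest at 0.0131 CPM, stromal control followed at 0.0799 CPM, and the vinclozolin groups were highest at 0.156 CPM each. Neighbours in this order did not overlap, except the vinclozolin groups, whose ratio of stromal to epithelial cells was 1.00. The ratio of stromal to epithelial cells was 6.09 in the control lineage, on 3 epithelial reads. The ratio of summed counts there had a 95% interval of 1.72 to 32.2 for counting error, and the ratio of means was 9.46 without epithelial control pool 2 and 4.06 without pool 3. These ratios include the epithelial pools that chose the window and are given with no test. Whether the lineage difference is larger in epithelial than in stromal cells was not tested for the same reason.

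The lead window lay on the flank of the peak, 400 bp before its summit, and the count there can be read as a share of the summit count of the same pool, which leaves the library size out. In epithelial control pools 1, 2 and 3 the lead window held 1.92%, 3.70% and 0% of the summit count. In epithelial vinclozolin pools it held 17.1%, 19.8% and 15.6%. The lineages were far apart on this scale too. In stromal control pools the share was 7.89%, 11.5% and 9.09%, and in stromal vinclozolin pools 17.1%, 21.1% and 18.2%, so the stromal mean went from 9.51 ± 1.86% to 18.8 ± 2.09% (SD, n = 3 each, two-sided exact permutation p = 0.1, the smallest possible). The other flank did not separate. In the window 400 bp after the summit the share was 10.3 ± 1.16% in epithelial control and 11.2 ± 6.52% in epithelial vinclozolin pools, and 6.96 ± 3.36% in stromal control and 10.4 ± 2.85% in stromal vinclozolin pools (exact permutation p = 0.3, two-sided). The count-weighted centre of the peak lay -6.75 ± 20.7 bp from the summit window in epithelial control and -43.4 ± 13.0 bp in epithelial vinclozolin pools, where a negative value lies on the side of the lead window, and the lineages did not overlap. Without epithelial control pool 1 the control mean was -7.50 bp. In stromal cells it lay at -41.6 ± 20.1 bp and -43.7 ± 4.25 bp (exact permutation p = 1, two-sided).

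Peak flanks were also higher in the vinclozolin libraries across the genome. Over 23309 isolated peaks whose summit count, summed over the 12 pools, lay between 404 and 1618 (809 at Syne1), the window 400 bp before the summit held on average 10.0% to 11.7% of the summit count in epithelial control pools and 12.8% to 14.8% in epithelial vinclozolin pools. It held 11.5% to 11.6% in stromal control and 13.9% to 15.8% in stromal vinclozolin pools. Every vinclozolin pool was above every control pool in both cell types, by a factor of 1.25 in epithelial and 1.27 in stromal cells. The lineage and this property of the libraries cannot be told apart, since each library of the vinclozolin lineage had it. As a description, the lead window divided by the summit window and by this genome average of the same pool had a log2 ratio of 2.89 in epithelial and 0.64 in stromal cells. The spread of single peaks around the average was not computed, and the part of the broader peaks in the difference at Syne1 was not tested.

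**Figure D4:**
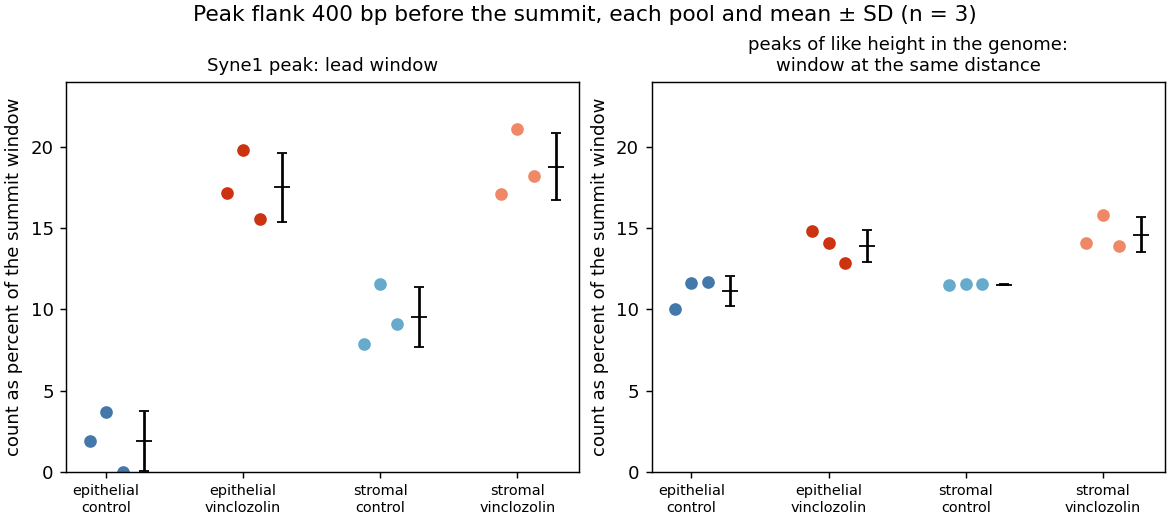
Count in the window 400 bp before a summit as a percent of the summit count (y axis, from 0) for the 4 groups (x axis), at the Syne1 peak on the left and on average over 23309 peaks of like height on the right; points are pools and black marks the mean ± SD of 3 pools. The left plot is a single peak selected for its epithelial difference and the right plot averages over many peaks, so their scales of variation differ; vinclozolin pools lie above control pools in both.

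Over all windows of the locus, the epithelial lineage comparison had 177 windows that reached 10 counts summed over its 6 pools, the limit for testing, and 237 below it. Among the 177, 15 (8.47%) had every vinclozolin pool above every control pool, against 6.77% of all windows tested in the genome, and 11 (6.21%) had every vinclozolin pool below, against 5.99%. The median log2 fold change was 0.04, and 0.004 over all windows tested. The contrast chose the locus, and nothing is read from these counts. Outside the DMR, the 5 windows that ranked first in the fit included neighbours at the start of the locus. At chr1:41941401-41941500 the epithelial control pools had 7, 6 and 4 reads and the vinclozolin pools 10, 22 and 19, and at chr1:41941501-41941600 they had 8, 5 and 4 against 11, 14 and 17. In the kilobase that holds both, chosen after its values were seen, the level was 1.28 ± 0.167 CPM in epithelial control and 1.79 ± 0.262 CPM in epithelial vinclozolin pools (log2 ratio 0.49, or 0.60 without epithelial control pool 1), with no overlap. The same kilobase had 1.37 ± 0.243 CPM and 1.40 ± 0.209 CPM in stromal control and vinclozolin pools (log2 ratio 0.04, exact permutation p = 0.7, two-sided), which overlapped. At chr1:41976801-41976900 the epithelial control pools had 0, 2 and 0 reads and the vinclozolin pools 3, 5 and 5. This window reached the limit of 10 counts only through the vinclozolin group, where it is high. The other windows went the opposite way, with 15, 19 and 17 against 11, 14 and 12 reads at chr1:41950801-41950900 and 8, 8 and 8 against 3, 7 and 4 at chr1:41950201-41950300. Vinclozolin pools were below control pools in both of them on the CPM scale.

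In stromal cells, 170 windows of the locus were tested with edgeR's exact test and 244 had too few counts. With Benjamini-Hochberg adjustment over the genome, 1 of the 170 was called at an adjusted p under 0.1, and 0.109% of all windows tested in the genome were. The called window reached the limit for testing only through the vinclozolin group, where it is high, so nothing is read from this count. At an unadjusted p under 0.05 there were 15 windows (8.82%), 13 higher and 2 lower in the vinclozolin lineage, against 6.89% in the genome. Every vinclozolin pool lay above every control pool in 21 windows (12.4%, against 9.23% in the genome) and below in 4 windows (2.35%, against 5.54%). The median log2 fold change was 0.13, beside 0.07 over all windows tested. These shares were not tested against those of the genome, and neighbouring windows share reads. They include windows that reached the limit for testing only through the vinclozolin group, where they are high. Nothing is therefore read from their direction.

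The stromal window counted as called was chr1:41970101-41970200, which lies after the DMR. The stromal control pools had 0, 2 and 1 reads and the stromal vinclozolin pools 9, 13 and 7. All vinclozolin pools were above all control pools, at 0.0995 ± 0.0189 CPM against 0.0148 ± 0.0154 CPM (SD, n = 3 each), and edgeR gave a log2 fold change of 2.61. That ratio rests on these few control reads, and its counting interval and its values without single pools were not computed. Its Benjamini-Hochberg adjusted p in edgeR's exact test was 0.0973. The epithelial pools showed no such separation there, with 1, 6 and 2 reads in control and 6, 4 and 3 in vinclozolin pools. This window too reached the limit for testing only through the vinclozolin group, where it is high. Its levels are therefore a description, and nothing is read from the call. The call was close to the threshold. Leaving out any of the 6 stromal pools ended it, and the smallest adjusted p at the locus was then 0.114 to 0.476 in edgeR's exact test over chromosome 1, with 0.114 without stromal vinclozolin pool 3. With all pools kept, no window of the locus was called over chromosome 1 by edgeR's quasi-likelihood test without a block by pool number (smallest adjusted p 0.105) or with it (0.141), or by the exact test without TMM (0.105), with median-of-ratios factors (0.111) or with no filter (0.179).

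The other named stromal windows were higher in the vinclozolin lineage but were not called. Neighbours at chr1:41947401-41947500 and chr1:41947501-41947600 had 6, 6 and 5 against 21, 16 and 17 reads and 4, 1 and 4 against 16, 14 and 10 reads. The former had an adjusted p of 0.387 in edgeR's exact test. The latter reached the limit for testing only through the vinclozolin group, so that its levels are a description. In the same windows the epithelial pools had 18, 20 and 13 against 17, 27 and 13 reads and 9, 12 and 5 against 13, 18 and 8 reads, with overlap between the lineages. The stromal control pools were thus the low group in both windows. At chr1:41979801-41979900 the stromal counts were 0, 1 and 1 against 10, 6 and 3, and at chr1:41969301-41969400 they were 1, 2 and 3 against 8, 10 and 10. Both of these also reached the limit for testing only through the vinclozolin group and are given as a description.

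A kilobase with fewer reads in the vinclozolin lineage in both cell types, chosen after its values were seen, was chr1:41950201-41951200. It had 1.40 ± 0.280 CPM in epithelial control and 1.03 ± 0.0605 CPM in epithelial vinclozolin pools, and 1.17 ± 0.0420 CPM in stromal control and 0.834 ± 0.0605 CPM in stromal vinclozolin pools (SD, n = 3 each). The pools of the lineages did not overlap in either cell type, and the log2 ratios were -0.45 and -0.48. Of the 40 kilobases of the locus with reads, 2 had all vinclozolin pools above and 2 below in epithelial cells. One of those above was the first kilobase of the locus. In stromal cells 3 lay above and 2 below. The share of such kilobases over the genome was not computed, and nothing is read from the choice of this one. The epithelial ratio was -0.32 without epithelial control pool 1, the highest of its group here. The lead window and this kilobase were both picked for their values, so no contrast is read from their opposite directions. No window in this kilobase was among the stromal windows called.

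**Figure D5:**
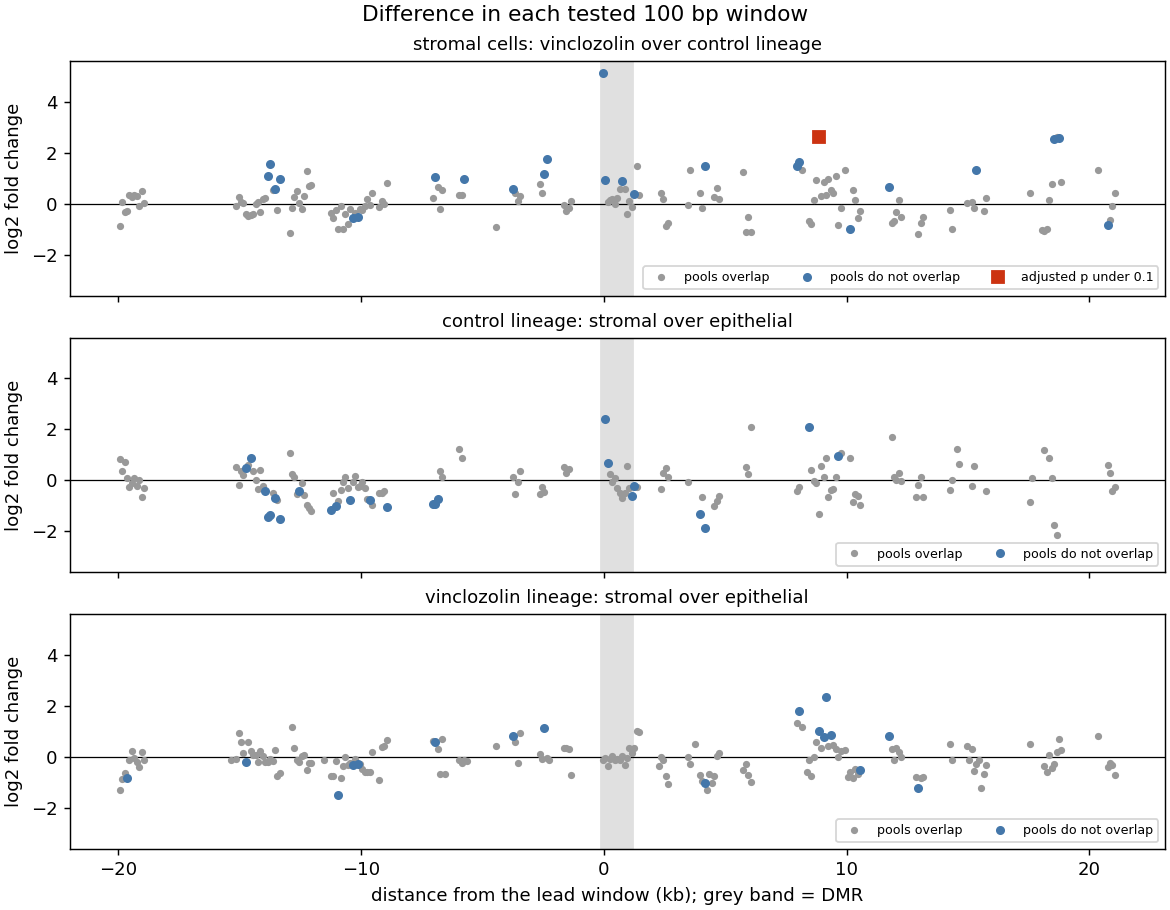
Log2 fold change in edgeR's fit (y axis) of each tested 100 bp window by distance from the lead window in kb (x axis), for the stromal lineage comparison and for stromal over epithelial cells in each lineage; colours mark windows whose pools do not overlap and the 1 stromal window with an adjusted p under 0.1, and the grey band is the DMR. The value near 5 belongs to the window with no read in stromal control pools, where the fit gives no bound.

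Epithelial and stromal cells of the same lineage were then compared at the windows outside the DMR. In the control lineage 143 such windows were tested and 0 were called by the exact test of edgeR after Benjamini-Hochberg adjustment (smallest adjusted p 0.485), against 0.00168% of the windows of the genome. At an unadjusted p under 0.05 there were 4 (2.80%), 1 higher and 3 lower in stromal cells, against 4.7% in the genome. DESeq2 called 0 at the locus, but also 0 of all windows it was fitted to. Every stromal pool lay above every epithelial pool in 4 windows (2.80%, against 4.47%) and below in 17 (11.9%, against 7.28%). The median log2 fold change of stromal over epithelial cells was -0.20, beside -0.05 over all windows tested. These shares were not tested against those of the genome. They include windows that reached the limit for testing only through the epithelial group, so nothing is read from their direction. Without epithelial control pool 1, 129 windows were tested, 0 were called and 5 had an unadjusted p under 0.05 in edgeR's exact test over chromosome 1. The sum of the windows outside the DMR had a log2 ratio of -0.15 (SE 0.09, two-sided exact permutation p = 0.2), or -0.09 without epithelial control pool 1. This SE and test, like those of the vinclozolin lineage below, take the pools as unpaired, although both cell types came from the same pooled tissue. The window with the smallest p was chr1:41947401-41947500, also named in the stromal lineage comparison, which used the same stromal control pools. It had 18, 20 and 13 reads in epithelial and 6, 6 and 5 in stromal control pools (log2 fold change -1.44, p = 3.56e-04 in edgeR's exact test, Benjamini-Hochberg adjusted p = 0.485). Its neighbour chr1:41947501-41947600 had 9, 12 and 5 against 4, 1 and 4 reads, and chr1:41965201-41965300 had 6, 6 and 5 against 1, 4 and 1. Both of these reached the limit for testing only through the epithelial group and are given as a description. At chr1:41946701-41946800 the stromal pools were higher, with 10, 17 and 12 reads against 8, 6 and 9.

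In the vinclozolin lineage 171 windows outside the DMR were tested and 0 were called by the exact test of edgeR after Benjamini-Hochberg adjustment (smallest adjusted p 0.637), against 0.0165% in the genome. There were 6 windows (3.51%) at an unadjusted p under 0.05, 3 in each direction, against 5.27%. DESeq2 called 0 both at the locus and among all windows it was fitted to. Every stromal pool lay above every epithelial pool in 9 windows (5.26%, against 6.29%) and below in 8 (4.68%, against 5.96%). Some of these windows reached the limit for testing only through the stromal group, so nothing is read from their direction. The median log2 fold change was -0.13, beside 0.01 over all windows tested, and the sum of the windows outside the DMR had a log2 ratio of -0.09 (SE 0.08, two-sided exact permutation p = 0.5). The window that ranked first was chr1:41969301-41969400, with 6, 0 and 1 reads in epithelial and 8, 10 and 10 in stromal vinclozolin pools (log2 fold change 1.81, edgeR). It reached the limit for testing only through the stromal group, so that its levels are a description. Next to it in rank, chr1:41941601-41941700 had 21, 22 and 15 against 14, 12 and 10 reads and was lower in stromal cells. At chr1:41947401-41947500 and its neighbour, which had the smallest p between the control lineage cell types, the vinclozolin lineage had 17, 27 and 13 epithelial against 21, 16 and 17 stromal reads and 13, 18 and 8 against 16, 14 and 10.

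Windows elsewhere in the genome with a profile over the 12 pools most like that of the lead window were found by Pearson's r of log2(CPM + 0.05) among the 6945989 windows that reached 40 counts in sum. The highest r were 0.977 at chr15:4132701-4132800, 0.975 at chr8:81312801-81312900, 0.974 at chr13:100166501-100166600, 0.974 at chr7:53518001-53518100 and 0.973 at chr11:19243101-19243200. They are the highest of a very large number and describe likeness only, and the points share library and depth. All of them had their lowest level in epithelial control pools. At chr15:4132701-4132800 the reads were 1, 2 and 0 in epithelial control, 5, 7 and 6 in epithelial vinclozolin, 2, 3 and 4 in stromal control and 8, 10 and 6 in stromal vinclozolin pools. Like the Syne1 lead window, this window and that on chromosome 7 were flanks of a higher peak, with 11.3% and 19.3% of the count of the highest window within 500 bp. The windows on chromosomes 11 and 8 held 32.0% and 78.3% of such a neighbour. The window on chromosome 13 held 97.3% of the count of its highest neighbour and was itself near a summit.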

How the data were processed

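MeDIP-Seq of 12 pools was used, over 414 windows (chr1:41941201-41982600). Before deposit the authors used Trimmomatic for trimming, Bowtie2 for mapping to Rnor_6.0, SAMtools for sorting and MEDIPS for counting in 100 bp windows. Versions are not given in the sources used here. The deposited counts are whole numbers per window and pool, without normalization. The authors' RPKM, fold change, p-value and adjusted p columns were not used. The members and lists were chosen with earlier results of these data known.

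Counts were analysed with edgeR 4.0.16 in R 4.3.3. Windows that reached 10 counts in sum over the 6 pools compared were scaled by TMM and tested with the exact test (common dispersion from a seeded sample of 400000 windows, tagwise dispersions in 8 interleaved parts), with Benjamini-Hochberg adjustment over all windows of the genome tested and calls at an adjusted p under 0.1. The DMR joined windows with p under 0.1 around the lead window, with no gap between starts above 1000 bp. Single values were compared by two-sided exact permutation tests. The steps were checked on simulated counts. Between the cell types of a lineage, pools of the same number had r of -0.0411 to -0.0011 over 342655 windows of chromosome 1, and no block was used. Most pools of a group differed by little more than counting noise, so r may be near 0 even for paired pools. The tests between cell types were thus unpaired, and pairing was not settled. The alternatives, fitted over chromosome 1 alone, were edgeR's quasi-likelihood test without a block by pool number and with it, library sizes without TMM, median-of-ratios factors, DESeq2 1.42.0 on the locus and 20000 sampled windows, a limit of 40 counts, no filter, and leaving out each pool in turn. Named windows were the lead window and the DMR, the 5 windows of smallest p outside the DMR per comparison, the 5 of highest mean CPM, and the 5 elsewhere in the genome, at least 1 Mb apart, most correlated with the lead window. Not every named window is given. Windows whose values bear on these were added after their values were seen. Which libraries shared a sequencing lane is not given in the sources used here.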

Additional observations from a re-analysis of the deposited data

How the results depend on the processing

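All 74 values of the 8 log2 ratios under alternatives kept their direction. Their shifts cannot be judged against the spread between pools, since leaving out 1 of 3 pools moves a mean by only a part of its SD. Joining windows with p under 0.05 gave the same 13 windows as the DMR, so those values could not move. When each pool was left out in turn, the epithelial log2 ratio was 2.99 to 4.21 at the lead window, 0.11 to 0.32 over the DMR and 0.02 to 0.14 over the locus. The stromal ratio was 0.74 to 1.11, 0.09 to 0.33 and 0.08 to 0.16. The ratio of stromal to epithelial cells over the locus was -0.17 to -0.05 in the control and -0.12 to -0.03 in the vinclozolin lineage. The values without 1 epithelial control pool for single windows, kilobases, the peak centre and the ratio of cell types at the lead window were chosen after seeing the data. Scaling to the summit, alone or with the peak profile of the genome, was too, and gave 3.22 and 2.89 in epithelial and 0.98 and 0.64 in stromal cells. The exact test over chromosome 1 alone also called 1 stromal window, and the limit given for that call holds here too. There were 0 calls with the quasi-likelihood test, with or without a replicate block, with library sizes without TMM, with median-of-ratios factors, with DESeq2, which called 0 of all windows it was fitted to, with a limit of 40 counts, which that window does not reach, and with no filter, which adds windows to the adjustment. Leaving out each pool in turn gave 0 calls each time. The cause of the other losses was not tested. No cell type comparison outside the DMR had a call under any of these alternatives. The replicate block by pool number changed no call, since the quasi-likelihood test gave 0 with it and without it.

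Depth limits these statements where control pools held 0 to 3 reads in all, as at the lead window, the window before it and the stromal window called. With 3 pools a group the exact permutation test cannot give a p under 0.1. Reads without molecular identifiers can be copies of a molecule, so counting intervals cover counting error only. Pools were prepared by lineage from joined tissue, and differences between animals were not measured.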
